A study of Drosophila melanogaster with 32 samples.

Results

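Small RNAs that co-precipitated with Ago1 from whole adult Drosophila melanogaster were compared between females and males over the transcripts of the dm6 genome. The 16 Ago1 libraries of the series' 32 were used, 8 female and 8 male, and every library of that precipitate was taken. Of 2303 transcripts in the table, 1212 averaged at least 5 reads over these 16 libraries, and counting sets of transcripts with identical counts once left 981 features. Equal numbers came from wDah, a white-eyed outbred line, and from wDah with dfoxo{delta}94, a deletion in foxo, which encodes a transcription factor of insulin signalling (dFOXO-null below). Each genotype was collected at 5 d and at 35 d, as labelled, in 2 experiments, so every combination of genotype, age and sex had 2 libraries. A lysate held 40 whole mated flies, kept with the other sex until collection, and guinea pig antisera against Ago1 were used. The 5 d and 35 d flies of a genotype and experiment were siblings per the labels. Whole flies include the gonads, and mated females can hold stored sperm. In such lysates fewer cells of a type and less RNA per cell cannot be told apart.

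In flies, Ago1 is the Argonaute of microRNAs (miRNAs), which are cut by Dicer-1 from hairpin precursors and guide Ago1 to messenger RNAs through their seed, the bases near the 5′ end of the guide. Ago2 mainly takes small interfering RNAs, among them those cut from long inverted repeats called hairpin RNAs. Ovary and testis express partly different miRNAs, and the testis also makes small RNAs from the Y-linked Suppressor of Stellate repeats. The table lists annotated transcripts to which reads of 25 nt or less aligned. Beside 102 miRNA hairpins it holds fragments of ribosomal, transfer, small nuclear, small nucleolar and messenger RNAs. It is not complete for miRNAs, and no hairpin of the let-7 complex is listed. The hairpins of miR-276a, miR-276b, miR-1, miR-277 and miR-34 were not among those tested. In the study these were among the most abundant miRNAs. Counts of miRNA hairpins below therefore describe only the hairpins listed, not all miRNAs in Ago1.

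Mature miRNAs of hairpins with wide folds or high counts in each direction are shown with the seed (bases 2 to 8) in capitals. They are a selection, and mir-989, which had the widest female-higher fold, is described below without its sequence. Sequences and positions are those of RefSeq on Release 6 of the fly genome (dm6), and 90 of the 97 hairpins tested were matched to a mature arm there. The first group was higher in females.
miR-318-3p, chr3R:10408344-10408365, plus strand: uCACUGGGcuuuguuuaucuca
miR-994-5p, chr3R:10408148-10408169, plus strand: cUAAGGAAauaguagccgugau
miR-92a-3p, chr3R:25646560-25646581, plus strand: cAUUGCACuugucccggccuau
miR-9b-5p, chr2L:16698758-16698780, plus strand: uCUUUGGUgauuuuagcuguaug
The second group was higher in males with counts scaled to library totals.
miR-975-5p, chrX:19558768-19558790, plus strand: uAAACACUuccuacauccuguau
miR-976-3p, chrX:19558954-19558975, plus strand: uUGGAUUAguuaucaucaaugc
miR-977-5p, chrX:19559046-19559067, plus strand: uAGAUAACucgaauaucacauc
miR-999-3p, chr3R:21798249-21798270, minus strand: uGUUAACUguaagacugugucu
miR-956-3p, chr3L:11773740-11773762, minus strand: uUUCGAGAccacucuaauccauu
The seed AUUGCAC of miR-92a-3p was shared by 5 hairpins tested, mir-92a, mir-310, mir-311, mir-312 and mir-313, and all 5 were higher in females. The seed AUCACAG was shared by 6 hairpins of the mir-2 family, of which 4 were higher in males and 2 were not called.

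The female libraries held 1394785 to 2323765 counted reads (median 1822814) and the male libraries 705569 to 2205268 (median 1039423), so depth differed with sex. Values are RPM, a library's reads scaled to 1e6 counted reads, and are given as the lowest to the highest of the 8 libraries of a sex with the median. They are not corrected for transcript length and compare libraries, not transcripts. Folds are log2 of female over male from edgeR's quasi-likelihood fit with genotype, age and experiment as terms, and a difference was called at a Benjamini-Hochberg adjusted p under 0.05. The sex labels were checked on Y-linked transcripts, which held 0 to 28.8 RPM in all in the female libraries and 864 to 6063 RPM in the male libraries.

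Sex moved a large part of the table. Of 981 features, 517 were called (52.7%), with 199 higher in females (20.3%) and 318 higher in males (32.4%). The 8 libraries of a sex all lay above the 8 of the other for 156 features (15.9%), 68 in the female direction (6.93%) and 88 in the male direction (8.97%). These directions depended on what the counts were scaled to. With the reads of miRNA hairpins as library size, 389 features were called, 274 higher in females and 115 higher in males. The miRNA hairpins listed took a larger share of the counts in male libraries (below). A feature that reached the minimum of 5 reads only through the sex in which it was high could hardly fail to differ, so the counts below describe the features measured. Folds by transcript group are plotted below, and the groups are then taken in turn.

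**Figure D1:**
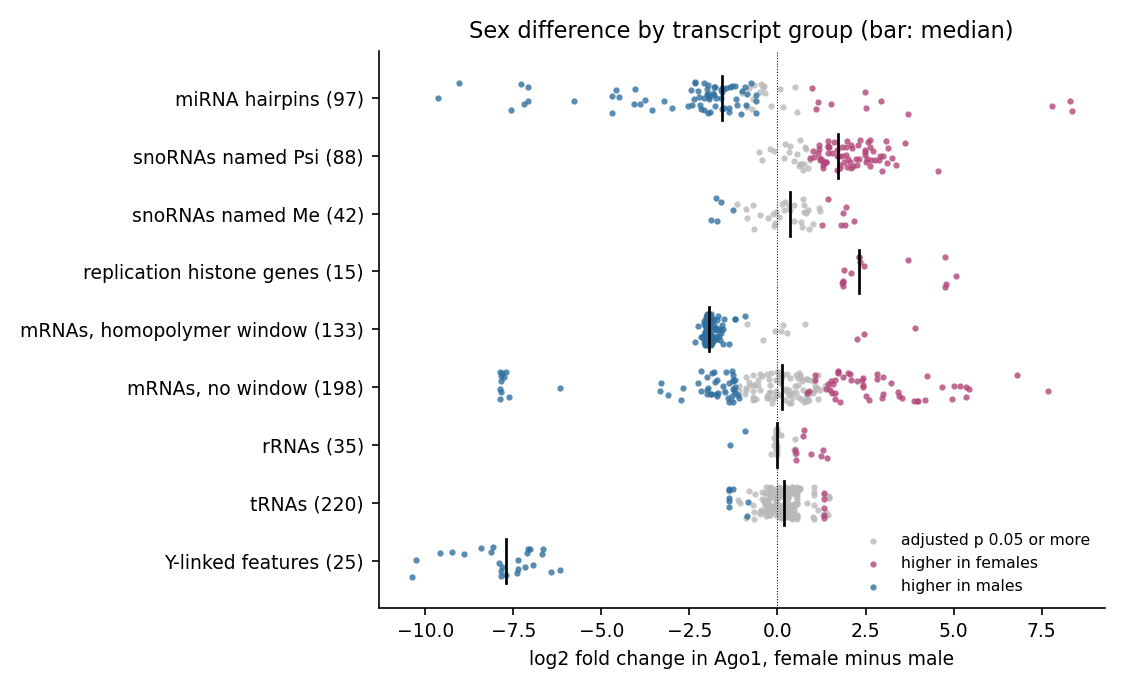
Log2 fold change in Ago1, female minus male, for the features of 9 groups (number in brackets), with 1 point a feature. Pink points were higher in females, blue points higher in males at an adjusted p under 0.05, grey points were not called, and the black bar is the group's median. The snoRNAs named Psi and the replication histone genes lay to the right, the miRNA hairpins, the transcripts with a homopolymer window and the Y-linked features to the left.

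Among miRNA hairpins, 97 were tested, 11 were higher in females and 70 in males, with a median of -1.59 on the log2 scale against -0.03 over all 981 features. The 3 hairpins of the ovary list were the widest apart of the female-higher group. mir-318 lay at 5273 to 43616 (median 12145) RPM in females and 9.57 to 146 (median 49.4) RPM in males, a log2 fold of 7.79 (SE 0.58, edgeR adjusted p = 1.4e-08). mir-994, which lies about 0.2 kb before mir-318 on 3R, lay at 2088 to 28764 (median 7645) RPM in females and 2.99 to 86.5 (median 17.2) RPM in males, a log2 fold of 8.30 (SE 0.63, edgeR adjusted p = 1.7e-08). Every female library stood above every male library for both, with wide gaps between the ranges. mir-989, an ovarian miRNA on 2R, lay at 2308 to 24615 (median 12461) RPM in females and 9.64 to 101 (median 25.7) RPM in males, a log2 fold of 8.36 (SE 0.56, edgeR adjusted p = 6.6e-09). The 3 together summed to 9669 to 85111 RPM (median 43592) in females and 29.9 to 326 RPM (median 91.6) in males.

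The AUUGCAC seed family, which the mir-310 cluster on 2R and mir-92a on 3R share, was also higher in females, by smaller folds and at appreciable male levels. mir-92a lay at 1183 to 3600.3 (median 2236) RPM in females and 81.2 to 464 (median 153) RPM in males, with no overlap and a log2 fold of 3.72 (SE 0.32, edgeR adjusted p = 6.1e-08). The folds of mir-313, mir-310, mir-312 and mir-311 were 2.94, 2.52, 2.49 and 1.52, and mir-311 was the member whose sexes overlapped, at 1347 to 6121 (median 2286) RPM against 414 to 2025 (median 923) RPM. mir-2498, listed in the same cluster, ran the other way. It lay at 0.543 to 3.71 (median 1.82) RPM in females and 24.1 to 123 (median 40.7) RPM in males, a log2 fold of -4.59 (SE 0.44, edgeR adjusted p = 2e-07). Outside these lists only mir-995, mir-9b and mir-306 were higher in females. mir-9b, of the mir-9 family, lay at 5642 to 17668 (median 10742) RPM in females and 3267 to 10614 (median 5169.6) RPM in males, overlapping ranges with a log2 fold of 0.97 (SE 0.20, edgeR adjusted p = 0.00075). mir-306 had a fold of 1.15 and mir-995 of 1.09, and the sexes separated for mir-995 alone of the 3.

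**Figure D2:**
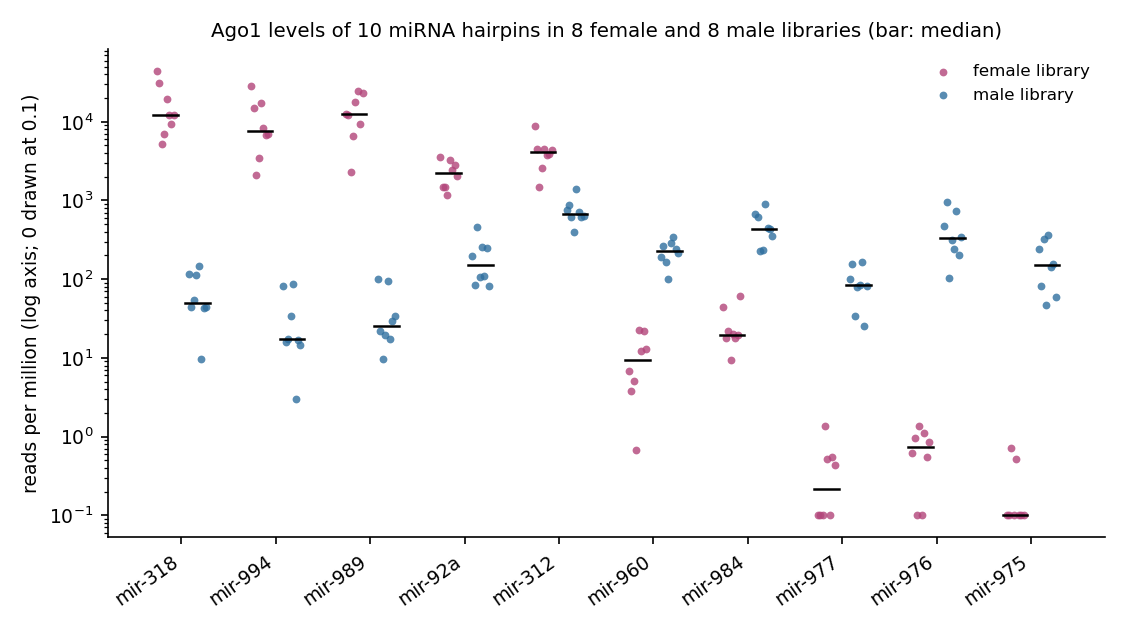
RPM (log axis) of 10 miRNA hairpins in the 8 female (pink) and 8 male (blue) Ago1 libraries, with the median as a bar and libraries at 0 drawn at 0.1. The points of the sexes did not overlap for any of the 10, and mir-975, mir-976 and mir-977 had female libraries without a read.

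All 15 hairpins tested of the testis list were higher in males, and 14 of them separated the libraries by sex. They lie in clusters on X (mir-982 to mir-984 and mir-973 to mir-977) and 2L (mir-959 to mir-964), with mir-991 on 2R. Their sum was 72.4 to 364 RPM (median 247) in females and 2226 to 5534 RPM (median 3505) in males. mir-975 lay at 0 to 0.717 (median 0) RPM in females, from 2 reads in all, and 47.4 to 368 (median 149) RPM in males, a ratio male over female of 1103 (95% counting interval 305 to 9116). mir-976 lay at 0 to 1.35 (median 0.740) RPM in females and 104 to 954 (median 329) RPM in males, a log2 fold of -9.04 (SE 0.49, edgeR adjusted p = 1.1e-09). mir-974 had no female read and 2.06 to 31.2 (median 10.2) RPM in males, which is at least 7.18-fold higher in males against a floor of 3 reads in each female library. The female libraries thus held few or no reads of these X-linked hairpins.

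The 2L cluster and the remaining X cluster kept measurable reads in females. mir-984 lay at 9.47 to 60.7 (median 19.8) RPM in females and 228 to 908 (median 440.1) RPM in males, and its neighbours mir-983-1 and mir-982 had log2 folds of -4.05 and -3.90 beside -4.09. On 2L the folds ran from -4.70 for mir-960 to -2.07 for mir-962, the member whose ranges overlapped, at 2.71 to 21.5 (median 10.1) RPM in females and 18.2 to 66.6 (median 36.2) RPM in males. mir-977 and mir-973 had folds of -7.58 and -7.09, and mir-991 of -4.71. Hairpins outside the list with folds of that size were mir-4966-1 and mir-4966-2 (-7.07 and -7.27), which give the same mature miRNA from the mir-973 to mir-977 cluster and share their reads. mir-9369, on X as well, had -5.79. These 3 were chosen after their values were seen.

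Against library totals, the other hairpins were mostly higher in males by smaller folds. Of the 73 outside the ovary, testis and mir-310 and mir-92 lists, 54 were higher in males and 3 in females (median -1.51). mir-999 lay at 4324 to 18866 (median 11410.3) RPM in females and 21238 to 97467 (median 39562) RPM in males, with no overlap and a log2 fold of -2.0 (SE 0.17, edgeR adjusted p = 5e-08). mir-986 had a fold of -2.35, mir-252 of -2.21, mir-7 of -1.14, mir-31a of -1.01 and mir-11 of -0.93, and the libraries separated by sex for all of these but mir-11. Among hairpins known from other tissues, mir-263b of sensory epithelia had a fold of -2.46, mir-219 of the nervous system -2.22, mir-317 of the mir-34 locus -1.62 and mir-133 of muscle -1.47.

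How far this general male excess held depended on the scale. With miRNA hairpin reads as library size the counts among the 73 were 40 higher in males and 6 in females, and the median moved to -0.95. mir-956, which had the highest count of the hairpins tested in the libraries of both sexes, changed sign. It lay at 40162 to 68921 (median 51951) RPM in females and 45723 to 160508 (median 80458) RPM in males. Its log2 fold was -0.60 (SE 0.20, edgeR adjusted p = 0.02) against library totals and 0.0075 against miRNA hairpin reads. The study's shares of Ago1 miRNA reads were higher for miR-276a-3p, miR-276b-3p and miR-1-3p than for miR-956-3p. Of the mir-2 family, mir-2a-1, mir-2a-2, mir-2b-2 and mir-11 were higher in males (folds of -0.60, -0.60, -0.75 and -0.93), while mir-13b-2 had 0.08 and mir-308 -0.37. The 26 hairpins on X held 23 called higher in males and none in females, beside 47 and 11 of 71 elsewhere. The X group includes the testis list's X clusters with mir-4966-1, mir-4966-2 and mir-9369. The ovary, mir-310 and mir-92 hairpins lie elsewhere, as does the rest of the testis list, so this split partly repeats those lists.

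Y-linked repeats and the X-linked genes they target were both read almost only in male libraries. All 25 Y-linked features tested were higher in males without overlap, and 24 of them were Su(Ste) repeats, whose small RNAs act in the testis against Stellate, an X-linked gene family that makes a protein forming crystals when unchecked. Su(Ste):CR42414 had no read in 8 female libraries and 43.3 to 272 (median 89.3) RPM in males, at least 65.3-fold higher. Su(Ste):CR42438, also without a female read, was at least 60.3-fold higher in males. The next Su(Ste) rows by fold, CR42431, CR42420, CR42444, CR42429, CR42422, CR45796 and CR42428, had log2 folds of -9.59 to -7.91, and being near-identical repeats they share reads. The Y-linked sums above can therefore count a read several times.

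All 10 Stellate features tested had no read in any female library and summed to 47.3 to 439 RPM (median 161) in males. Ste:CG33245 lay at 4.82 to 45.4 (median 16.9) RPM in males, at least 11.3-fold higher. The Stellate and Su(Ste) transcripts share short stretches, shown here as the first bases of the longest run common to Ste:CG33247 and Su(Ste):CR42420, 36 nt on the same strand.
Ste:CG33247, chrX:14047175-14047204, minus strand: aagtggtacggcatgattcacgcccgatac
Of the 590 words of 18 bases in Ste:CG33247, 59 (10.0%) occurred in any of the 24 Su(Ste) features, so part of the Stellate reads can align to both, and the deposited table does not tell the loci apart.

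Both hairpin RNA loci tested were higher in males. hpRNA:CR46342 on X lay at 5824 to 14934 (median 8986) RPM in females and 33977 to 106226 (median 53922) RPM in males, with no overlap and a log2 fold of -2.54 (SE 0.24, edgeR adjusted p = 1.6e-07). hpRNA:CR32207 on 3L, a source of siRNAs known in testis, lay at 0.676 to 9.77 (median 5.83) RPM in females and 28.2 to 171 (median 66.8) RPM in males, a log2 fold of -3.66 (SE 0.41, edgeR adjusted p = 1.4e-06). Transcripts that carry the complement of parts of hpRNA:CR32207 divided. CG32213 and CG14096 were higher in males (-2.73 and -2.19), each without overlap. CG32212, which shares a run of 63 nt with the hairpin in the opposite strand, was higher in females. It lay at 3.80 to 46.0 (median 15.8) RPM against 0 to 1.21 (median 0.227) RPM in males, a log2 fold of 5.19 (SE 0.59, edgeR adjusted p = 1.5e-06). CG32212 also overlaps an exon of another hairpin locus, hpRNA:CR33940, on the opposite strand. Which locus its reads come from was not tested. The first bases of the stretches of hpRNA:CR32207 complementary to CG14096 and to CG32212 are shown because their transcripts moved in opposite directions.
hpRNA:CR32207 at CG14096, chr3L:19478506-19478535, minus strand: gttcctggcgataacctggctactggtggc
hpRNA:CR32207 at CG32212, chr3L:19478609-19478638, minus strand: gacctgcgcagcagcagaggcgcagctgat

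Messenger RNA fragments higher in females included eggshell and histone transcripts. Of 9 yolk and eggshell transcripts in the table, 2 passed the filter, the chorion genes Cp36 and Cp15, and both were higher in females. Cp36 lay at 2.71 to 16.8 (median 5.07) RPM in females and was read once in 1 male library, a ratio female over male of 78.0 (95% counting interval 13.7 to 3108). Cp15 lay at 1.43 to 19.6 (median 5.72) RPM in females and was also read once in males, with a ratio of 77.4 (95% counting interval 13.6 to 3082). Vitellogenin and other chorion transcripts were too low to test.

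The replication histone genes, repeated in a tandem array on 2L and transcribed in dividing cells, went in 1 direction. The table lists 111 of these transcripts, and 15 features passed the filter. All 15 were higher in females (median fold 2.32), beside 20.3% of all 981 features, as were all 15 in each fit that left out 1 library. Within experiment 1 alone, 7 of the 15 were called, and within experiment 2 all 15. Their sum was 113 to 261 RPM (median 183) in females and 10.6 to 44.7 RPM (median 30.8) in males, so the sexes did not overlap. At such male levels these features could pass the filter through their female reads, so their common direction is not separate support. His4:CG33907 lay at 5.41 to 26.0 (median 12.6) RPM in females with 3 male reads in all, a ratio of 43.7 (95% counting interval 14.7 to 214). His3:CG33803 had a fold of 3.70, His2A:CG31618 of 2.34, His2B:CG33868 of 2.32 and His1:CG33834 of 1.84, and copies of a histone gene share reads. snRNA:U7, the small nuclear RNA that guides the processing of histone pre-mRNA ends, lay at 517 to 1514 (median 677) RPM in females and 164 to 781 (median 329) RPM in males, overlapping ranges with a log2 fold of 1.31 (SE 0.31, edgeR adjusted p = 0.0024). BigH1, the germline and embryonic linker histone, had 93 female reads and 3 male reads, a ratio of 20.9 (95% counting interval 6.92 to 103).

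Among messenger RNAs higher in females, the widest fitted fold was that of Muc12Ea, a mucin gene on X. It lay at 101 to 859 (median 411) RPM in females and at 0 in 7 of 8 male libraries, with 120 reads (71.8 RPM) in the dFOXO-null male library of 5 d and experiment 2. The log2 fold was 7.69 (SE 1.13, edgeR adjusted p = 2.5e-05). Without that library no male read was left and the fitted fold was 12.3, a value set in part by the prior count. CG7564 lay at 45.2 to 582 (median 135) RPM in females and 2.06 to 11.3 (median 6.52) RPM in males, a log2 fold of 4.96 (SE 0.48, edgeR adjusted p = 2e-07). RhoGAP18B, teq and bol were also higher in females, and each shares sequence with CG7564. CG7564 and RhoGAP18B have a run of 534 nt in common on the same strand, and teq and bol hold the complement of 180 nt and 144 nt of CG7564. These longest runs lie at different places in CG7564. Some reads may count at CG7564 and another of these, for teq and bol only if counting ignored strand. bol, a translation factor of spermatocyte meiosis and the testis list's member that was higher in females, lay at 2.87 to 20.6 (median 5.80) RPM in females and 0 in males, at least 3.10-fold higher. teq had a ratio of 62.9 (95% counting interval 17.2 to 523), RhoGAP18B a log2 fold of 4.67, and olf186-M, with 1 male read, a ratio of 53.1 (95% counting interval 9.27 to 2125).

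Small nucleolar RNAs were divided by name. Those named Psi guide the conversion of uridine to pseudouridine (box H/ACA), and those named Me guide 2′-O-methylation (box C/D), mostly in ribosomal RNA. Of 88 Psi features, 68 were higher in females and none in males, with a median fold of 1.73 and 19 without overlap. Of 42 Me features, 7 were higher in females and 5 in males, with a median of 0.35. The male-higher ones were Me28S-G764, Me18S-G1358a, Me18S-G1358b, MeU6-A47 and scaRNA:MeU2-G25. The Psi rows summed to 4750 to 18672 RPM (median 9733) in females and 1767 to 8877 RPM (median 3262) in males, and the Me rows to 644 to 6686 RPM (median 2057) and 1333 to 4815 RPM (median 2517). Of 43 with other names, 17 were higher in females and 4 in males, the latter being snoRNA:291, snoRNA:CG32479-a, snoRNA:CG32479-b and snoRNA:kis-a.

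The examples below were chosen after their values were seen, as the Psi features with the highest counts and the widest fold. snoRNA:Psi28S-3342 on X lay at 477 to 3945 (median 1789) RPM in females and 61.7 to 984 (median 193) RPM in males, a log2 fold of 2.58 (SE 0.30, edgeR adjusted p = 2.2e-06). snoRNA:Psi18S-301 lay at 28.7 to 173 (median 71.5) RPM in females and 0 to 4.85 (median 3.23) RPM in males, without overlap and with a log2 fold of 4.56 (SE 0.52, edgeR adjusted p = 1.6e-06). Not every Psi feature differed. snoRNA:Psi28S-2149, in an intron of RpS7, lay at 34.4 to 2344 (median 489) RPM in females and 68.7 to 1749.7 (median 274) RPM in males, a log2 fold of 0.54 (SE 0.41, edgeR adjusted p = 0.3), while snoRNA:Psi18S-1377c of the same host gene had 3.13 and separated the sexes. Of the 88, 85 lie in introns of host genes under 31 different host entries. The direction held under each scaling and in each experiment, with 34 Psi features called within experiment 1, 54 within experiment 2 and 74 with miRNA hairpin reads as library size, and none called higher in males.

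Most of the male-higher messenger RNAs shared a feature of sequence. Of the 981 features, 154 have a transcript with at least 17 A or at least 17 T within 18 bases, a property of 4.8% of 41501 annotated transcripts, and this grouping was made after the values were seen. Of these 154, 143 were higher in males and 3 in females, Rnf11, msk and Myc (median fold -1.94), and none had all male libraries above all female ones. Without them, 196 of 827 features were higher in females and 175 in males. Among messenger RNAs the split was 123 male and 3 female of 133 with such a window and 51 male and 66 female of 213 without it. The window lay in the 3′ UTR for 89, the 5′ UTR for 44 and a noncoding exon for 21 features.

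The windows of 3 features with high counts are shown with the runs of A in capitals.
trol, chrX:2477852-2477881, minus strand, 3′ UTR: cctttcAAAAAAAAAAAAAAAAAAAAAAAA
Syt1, chr2L:2789479-2789508, minus strand, 3′ UTR: AAAAtcAAAAAAAAAAAAAAAAAAAAAAAA
His2Av, chr3R:26868918-26868947, plus strand, 3′ UTR: AtttccAAAAAAAAAAAAAAAAAAAAAAAA
trol, which encodes perlecan, lay at 1.03 to 208 (median 95.6) RPM in females and 126 to 835 (median 219) RPM in males, with overlapping ranges and a log2 fold of -2.02 (SE 0.72, edgeR adjusted p = 0.026). Its lowest library was the dFOXO-null female one of 5 d and experiment 1, at 1.03 RPM, and its highest the dFOXO-null male ones of 5 d, at 835 and 717 RPM. Syt1, of synaptic vesicles, lay at 0 to 160.3 (median 76.1) RPM in females and 98.2 to 643 (median 171) RPM in males, and His2Av, the histone variant, at 0 to 114 (median 54.4) RPM and 71.5 to 458 (median 124) RPM.

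The features with a window moved together from library to library. Pearson correlations with trol were taken across the 16 libraries on log2 of RPM plus 1. Their median was 0.92 over the other 153 features with a window, 89 of them above 0.9. Over the 827 without a window the median was -0.02, with 7 above 0.9. These correlations are a description over libraries that share sex, depth and experiment. Members of other lists fell into this group, namely Mst36Fb (testis), mof and msl-3 (dosage compensation), fru (sex determination) and RpL7A, which were called higher in males with folds of -2.03, -1.74, -1.99, -1.73 and -1.85. Whether their reads come from these genes was not tested. The number of male calls among the 154 depended on some settings. It was 142 with TMM scaling, with median-of-ratios scaling and in DESeq2, and 143 with library totals that left out miRNA hairpins. Without the experiment term it was 27 (median fold -1.72), within experiment 1 only 1 (-2.77), within experiment 2 81 (-1.40), and with miRNA hairpin reads as library size 6 (-1.29), so the folds stayed negative where calls were lost. Leaving out the dFOXO-null female library of 5 d and experiment 2 left 52, leaving out that of 35 d and experiment 1 left 71, and leaving out the wDah female library of 5 d and experiment 1 left 75.

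**Figure D3:**
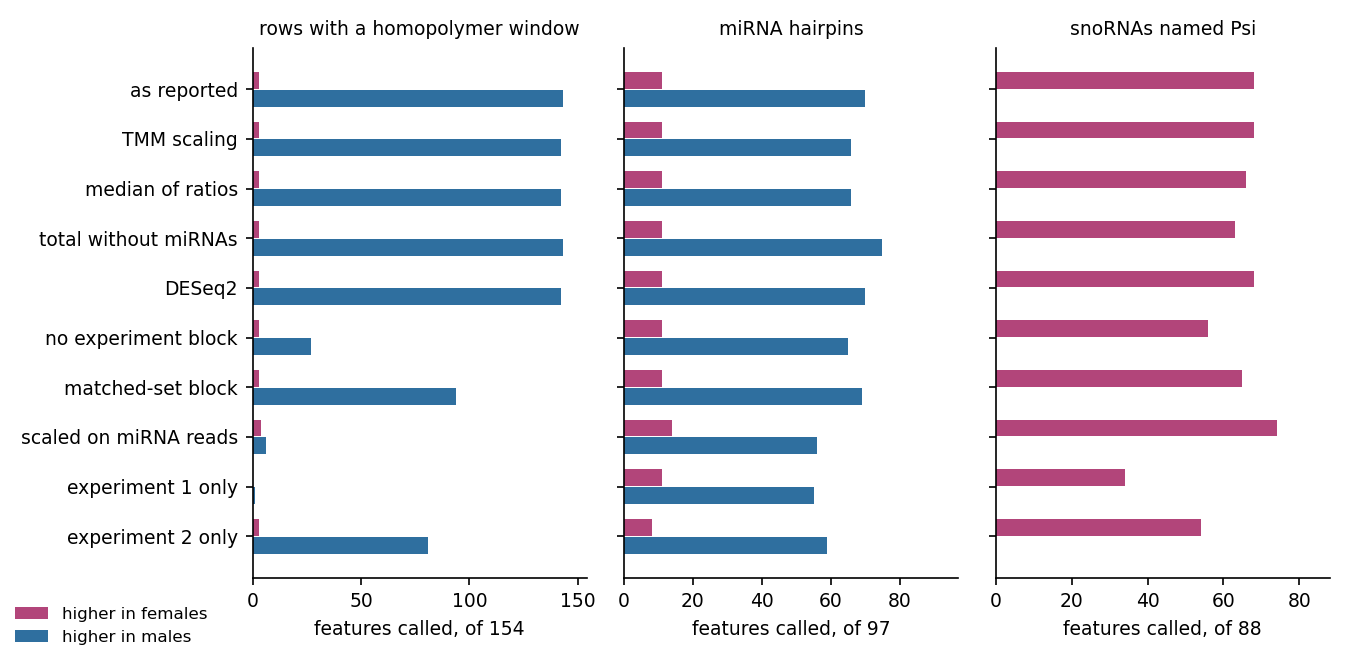
Number of features called higher in females (pink) and in males (blue) among the 154 with a homopolymer window, the 97 miRNA hairpins and the 88 snoRNAs named Psi, as reported and under 9 other settings. The male calls of the first group were 142 or 143 under 4 of these and 1 to 94 under the other 5, while the Psi group had 34 to 74 female calls and no male call.

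Of the remaining messenger RNA lists, muscle and gut transcripts showed few differences. Of 3 sarcomere transcripts, Mlc2, the myosin regulatory light chain, was higher in males, at 1.43 to 15.5 (median 7.23) RPM against 9.70 to 40.8 (median 19.7) RPM with a log2 fold of -1.80 (SE 0.33, edgeR adjusted p = 0.00029), while Act57B (-0.49) and Act88F (-0.44) were not called. Of 9 gut transcripts, the digestive enzymes Mal-A1 (-1.87) and Amy-d (-1.25) were higher in males and 7 were not called. Of 17 ribosomal protein transcripts, 5 were higher in females, RpL22, RpS27A, RpL41, RpL24-like and RpL6, with folds from 0.89 to 1.86, and RpL7A in males. Pen and alphaTub84D, which had been placed on the testis list, were uncalled, and no accessory gland transcript passed the filter.

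Ribosomal, transfer and small nuclear RNA fragments made up much of each library but differed less. Of 35 rRNA features, 9 were higher in females, 2 in males and 24 were not called (median fold -0.02). All 6 features tested of 28S rRNA pseudogenes on X were higher in females (median fold 1.09). The count was 5 with TMM or median-of-ratios scaling, in DESeq2 and with no experiment term or a term per matched set, 4 with library totals that left out miRNA hairpins, and 3 within each experiment, with none higher in males. 28SrRNA-Psi:CR40741 lay at 19454 to 56596 (median 31544) RPM in females and 9846 to 18389.7 (median 12729.8) RPM in males, without overlap and with a log2 fold of 1.29 (SE 0.18, edgeR adjusted p = 2e-05). The folds of 28SrRNA-Psi:CR45860, CR45859 and CR45855 were 1.24, 0.95 and 0.72, and 2SrRNA:CR45864 and 2SrRNA-Psi:CR40677 had 0.54 and 0.50. 2SrRNA:CR45864 was not called with TMM scaling. These rows share reads with the ribosomal RNA genes. Of 220 tRNA features, 5 were higher in females, all copies of tRNA:His-GTG-1 (1.32), and 8 in males, 6 of tRNA:Val-CAC and both tRNA:Arg-TCT rows. Of 28 small nuclear RNAs, snRNA:LU (3.20), U6atac (1.81) and U7 were higher in females, and U5:63BC (-1.45), 7SKa (-1.36) and U4atac (-1.29) in males.

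As shares of a library's counts, 3 of 8 classes differed. The table lacks some miRNA hairpins, abundant ones among them, and can count 1 read at several transcripts. These are therefore not shares of all RNA in Ago1, and the miRNA share is that of the hairpins listed. miRNA hairpins took 12.3% to 31.5% (median 23.4%) of female libraries and 24.8% to 49.0% (median 33.3%) of male libraries, a mean difference of -11.2 percentage points that was negative in 8 of 8 sets matched for genotype, age and experiment. The exact two-sided sign-flip permutation test gave p = 0.0078125, the smallest that 8 sets allow, and 0.0208 after adjustment over the 8 classes. Hairpin RNA loci took 0.583% to 1.49% (median 0.899%) in females and up to 10.6% (median 5.40%) in males, with the male library higher in 8 of 8 sets and the same p. rRNA took 22.6% to 55.3% (median 37.9%) and 20.9% to 38.2% (median 28.3%), higher in the female library in 8 of 8 sets with the same p, although the ranges overlapped. As a share of the reads outside miRNA hairpins, the rRNA difference was 8.53 percentage points and was not called (exact permutation test, p = 0.133, adjusted 0.266). Shares are bound to sum to 100%, so these 3 differences are not independent. snoRNA, snRNA, tRNA, mRNA and the remaining noncoding RNAs had adjusted p between 0.141 and 0.727 by the same exact permutation test.

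**Figure D4:**
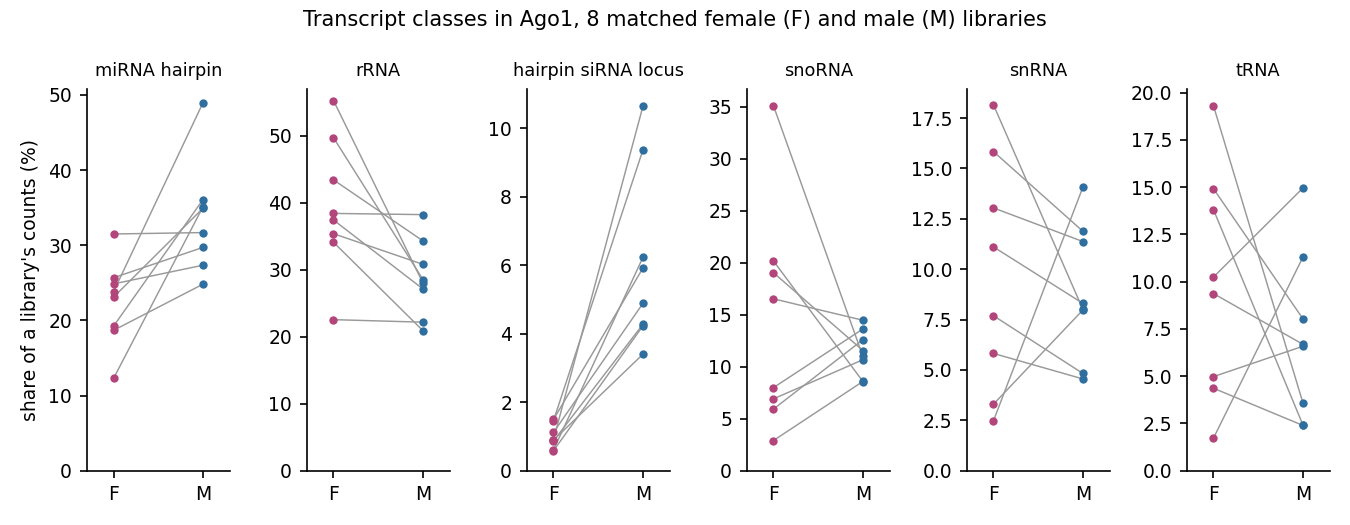
Share of a library's counts (percent) in 6 transcript classes, with 1 line for each of 8 sets of a female (F) and a male (M) Ago1 library of the same genotype, age and experiment. The lines for miRNA hairpins and hairpin siRNA loci rose from F to M in all 8 sets and those for rRNA fell, while the other 3 classes ran both ways.

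The sex difference was estimated at each age and in each genotype, each from 4 against 4 libraries. At 5 d, 451 of 981 features were called (46%), 162 higher in females (16.5%) and 289 in males (29.5%), and at 35 d 263 (26.8%), 132 (13.5%) and 131 (13.4%). In wDah 282 were called (28.7%), 151 (15.4%) and 131 (13.4%), and in dFOXO-null 418 (42.6%), 136 (13.9%) and 282 (28.7%). These counts do not show that the sex difference changed with age or genotype, and the test of that change itself called 0 features for sex by age (125 with an unadjusted p under 0.05) and 0 for sex by genotype (101 unadjusted) in edgeR. With median-of-ratios scaling 3 were called for sex by age. Without the dFOXO-null female library of 5 d and experiment 2, 103 were called for sex by age and 86 for sex by genotype, so the counts of 0 rest on that library.

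The large miRNA differences were present in every stratum. mir-318 had log2 folds of 8.39 at 5 d, 7.04 at 35 d, 7.54 in wDah and 7.89 in dFOXO-null. mir-92a had 4.14, 3.31, 3.34 and 4.10, and mir-976 had -9.67, -8.33, -8.92 and -9.08 in the same order. The lowest p for sex by genotype was that of mir-964, whose male excess was -4.94 in wDah and -2.31 in dFOXO-null, a difference of 2.63 (SE 0.61, edgeR adjusted p = 0.45). mir-959 of the same cluster followed, with -6.03 and -3.30, as did CG7231. For sex by age the lowest were Sas10, a nucleolar protein gene (4.37 at 5 d and 0.13 at 35 d, a difference of -4.24, SE 1.05, edgeR adjusted p = 0.376), snoRNA:Psi28S-1192b and lncRNA:CR45196.

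The same contrast in the Ago2 libraries, fitted with those of Ago1, called 615 of the 981 features (62.7%), 182 higher in females (18.6%) and 433 in males (44.1%). With TMM scaling the majority turned, to 245 higher in females and 182 in males of 427 called. The difference between the 2 precipitates was called for 15 features (1.53%), 11 further to the female side in Ago1 (1.12%) and 4 further to the male side (0.408%), and 12 of the 15 were miRNA hairpins. Without the experiment term 4 were called, mir-989, mir-318, mir-311 and mir-312, and none on the male side. With TMM scaling 10 of the 15 were called, and mir-313, mir-7, mir-31a, mir-31b and mir-9b were not. mir-318 and mir-989 had Ago2 folds of 3.78 and 4.32, smaller than in Ago1 by 3.94 (SE 0.71, edgeR adjusted p = 0.0011) and 4.04 (SE 0.72, edgeR adjusted p = 0.0011). For mir-312 the fold was -0.52 in Ago2, a difference of 2.95 (SE 0.51, edgeR adjusted p = 0.0011), and for mir-311 it was -1.41, opposite in sign to Ago1, a difference of 2.93 (SE 0.46, edgeR adjusted p = 0.00061). mir-310 (2.47), mir-313 (2.51) and mir-92a (2.41) differed in the same direction, so all 5 hairpins of the AUUGCAC seed were among the 15.

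Among male-higher hairpins, mir-7, mir-31a and mir-31b had larger male excesses in Ago2 (-2.85, -2.81 and -2.82) than in Ago1, with differences of 1.71, 1.80 and 1.80. mir-9b was 0.97 in Ago1 and -0.79 in Ago2. The hairpin loci ran the other way, hpRNA:CR46342 with -1.09 in Ago2 and a difference of -1.49 (SE 0.36, edgeR adjusted p = 0.03), and hpRNA:CR32207 with -1.54 and a difference of -2.29 (SE 0.55, edgeR adjusted p = 0.03). Without the experiment term neither difference was called (-1.56 and -2.34, edgeR adjusted p = 0.0999 for both), and with TMM scaling both were. mir-308 (73 female and 77 male reads in Ago1) and CG10910 (27 and 81 reads) rested on few reads. The precipitates came from the same kind of lysate, the deposited tables do not say whether they shared flies, and experiment was fitted within each precipitate.

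**Figure D5:**
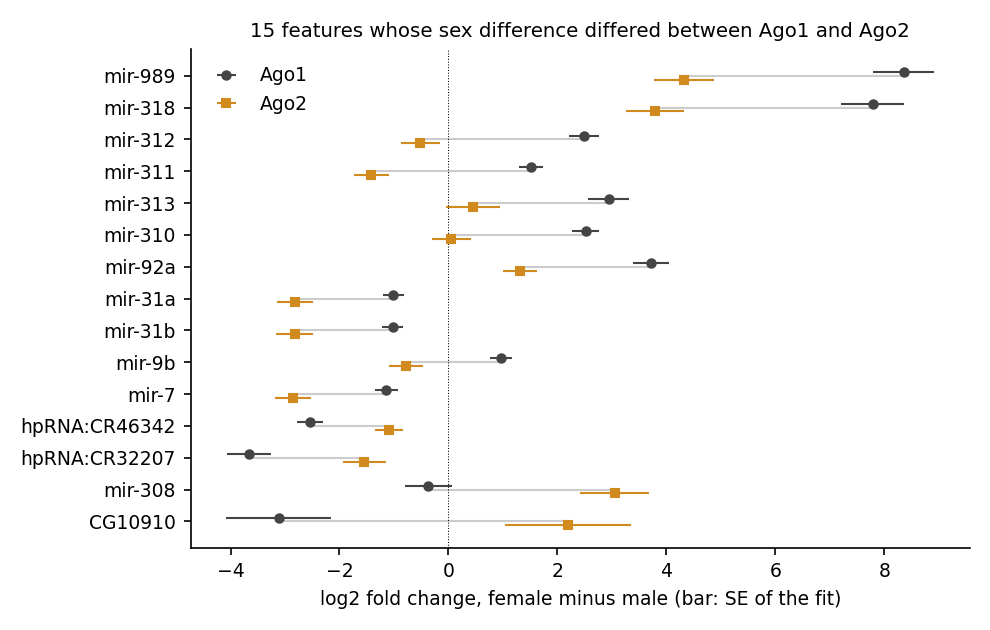
Log2 fold change, female minus male, in Ago1 (circles) and Ago2 (squares) with the standard error of the fit, for the 15 features whose sex difference differed between the precipitates at an adjusted p under 0.05. The AUUGCAC family, mir-318, mir-989 and mir-9b lay further to the female side in Ago1, and both hairpin RNA loci further to the male side.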

How the data were processed

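Small RNA was sequenced from Ago1 and Ago2 precipitates. Per the labels and the study's methods, the authors trimmed adapters (Trim Galore), kept reads of 25 nt or less, aligned them to dm6 (Bowtie, up to 1 mismatch, all valid alignments reported) and counted them per transcript (featureCounts), and 1 read may thus be counted for more than 1 feature. Tool versions and whether counting used strand are not given in the sources used here. The deposited values are counts, whole numbers without normalization. Every column named a sample (0 without). Positions and classes came from the BDGP6 annotation, which held 2299 of 2303 transcript IDs.

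The tests were run in edgeR 4.0.16 (R 4.3.3) on these counts (glmQLFit, glmQLFTest), with sex, genotype, age and experiment as terms and the column total of the dm6 transcript table as library size. The study scales to the reads mapped to its miRNA and transposon set, another denominator. Library sizes of the listed miRNA hairpins alone, which lack abundant ones, were an alternative. Strata and interactions used 1 mean per group. Features averaging 5 or more reads were tested and adjusted by Benjamini-Hochberg over all 981. Class shares were compared with Python 3.11.15 and SciPy 1.17.1. A count of 0 was bounded by 3 reads, and intervals cover counting error only. The fit was tested on simulated data for this comparison over 981 features and recovered 18% of 2-fold and 86% of 4-fold changes, with 4 false calls.

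Experiment numbers mark shared sibling cohorts. Deviations of 5 d and 35 d siblings from their group means correlated at 0.26 to 0.60, and those of females and males of 1 number at 0.25 to 0.42 in 3 of 4 pairs and -0.15 in the wDah 35 d pair. No replicates were copies (lowest chi-square per degree of freedom 113). Whether the 2 replicates came from separate cultures beyond their experiment number is not stated, so p-values measure the spread between these libraries. The fit held 1 experiment term for all genotypes and sexes, and no setting had a term per sibling cohort. Correlated siblings were thus treated as separate libraries, and p-values may be too small.

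Named features were the 12 widest folds per direction without overlap, the 8 called with the highest counts per direction, and called list members. Members and lists were chosen with earlier results of these data known. The alternatives were TMM and median-of-ratios scaling, library sizes with or without miRNA hairpins, other filters, no experiment term, a term per matched set, DESeq2 1.42.0, each experiment alone, and leaving out each library. Leaving out the homopolymer features was added after seeing the data.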

Additional observations from a re-analysis of the deposited data

Results flagged for a closer look

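Some libraries stood apart from the other 7 of their sex in a named feature. About 1 group in 20 is expected to show such a library by chance where values are normally distributed. That rate does not hold for features with no read in the other libraries. From 94 groups examined, 21 libraries were flagged. The dFOXO-null male library of 5 d and replicate 2 held 71.8 RPM of Muc12Ea and 0.598 RPM of both Cp15 and olf186-M, where the other male libraries held none, and the dFOXO-null male library of 35 d and replicate 2 held 0.453 RPM of Cp36. The dFOXO-null male library of 5 d and replicate 1 was highest for 6 Su(Ste) repeats that share reads, CR42438 (262 RPM), CR42431 (320 RPM), CR42444 (281 RPM), CR42429 (325 RPM), CR42422 (298 RPM) and CR45796 (258 RPM). In that library mir-252 stood at 32600 RPM, beside 6920 to 12500 RPM in the other males.

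Females held stray reads of Y-linked repeats, 0.717 RPM of CR42431 and of CR42420 in the wDah library of 35 d and replicate 1, and 0.959 RPM of CR42444 and 2.4 RPM of CR42422 in the wDah library of 5 d and replicate 2. The wDah male library of 5 d and replicate 2 was high for mir-999 (97500 RPM), mir-31a (18600 RPM) and the share of miRNA hairpins (49%), and that of 35 d and replicate 1 for mir-956 (161000 RPM). The share of other noncoding RNAs and pseudogenes was 6% in the dFOXO-null female library of 5 d and replicate 2 and 7.24% in the wDah male library of 35 d and replicate 2.

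The sex difference differed between Ago1 and Ago2, by a test of the difference itself, for 15 features. Ago1 minus Ago2 on the log2 scale was positive for mir-989 (4.04), mir-318 (3.94), mir-312 (2.95), mir-311 (2.93), mir-313 (2.51), mir-310 (2.47), mir-92a (2.41), mir-31a (1.8), mir-31b (1.8), mir-9b (1.76) and mir-7 (1.71). It was negative for hpRNA:CR46342 (-1.49), hpRNA:CR32207 (-2.29), mir-308 (-3.45) and CG10910 (-6.26).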

How the results depend on the processing

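Of 74 named features, 1184 values from fits that left out 1 library kept direction and threshold in 1146 cases and missed the threshold in 38. Of 950 values under other settings, 874 kept both, 75 missed the threshold, and mir-956 changed sign (0.0075 with miRNA hairpin library size). The sex contrast called 812 features of 2044 without a filter, 316 of 613 at 20 or more reads, 203 within experiment 1 and 371 within experiment 2, 351 with no replicate block, 449 with a block per matched set, and 367 of 827 without homopolymer features. The share of calls higher in females was 38.5%, and 70.4% with miRNA hairpin library size. At 20 or more reads, 273 were called at 5 d, 169 at 35 d, 180 in wDah and 259 in dFOXO-null. No replicate block gave 237 at 5 d, 181 in dFOXO-null and 4 for Ago1 minus Ago2. Median-of-ratios scaling called 3 for sex by age. Leaving out 1 library called 399 to 529 for sex, 0 to 103 for sex by age and 0 to 86 for sex by genotype, with the highest of both interactions without the dFOXO-null female library of 5 d and replicate 2. Under TMM the folds rose by a median of 0.12 and the median fold over all features went from -0.03 to 0.09. In Ago2, TMM called 427 for sex, 245 higher in females and 182 in males.

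As log2 shares, snRNA and snoRNA differed by -0.0676 and -0.0290. Outside miRNA hairpins, rRNA differed by 8.53 points (exact permutation, adjusted p = 0.266) and snRNA by -1.56. Within experiment 1 the differences were -6.92 (hairpin loci), -10.3 (miRNA hairpins), 14.7 (rRNA), -0.492 (snRNA) and -3.26 (snoRNA) points, and within experiment 2 -3.33, -12.1 and 6.82 for the first 3 and -1.36 for tRNA. With 4 sets, the exact test cannot go below 0.125. Leaving out 1 set gave -1.03 to 0.19 for other noncoding RNAs, -0.53 to 2.58 for snRNA and -0.089 to 4.31 for snoRNA. The causes were not tested. Male libraries were shallower, so low features are bounded less tightly there.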

Other observations

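Further noncoding and messenger RNA fragments, chosen after their values were seen, differed by sex. lncRNA:flam, the precursor of the flamenco piRNA cluster active in somatic cells of the ovary, had 103 female and 2 male reads, a ratio of 34.6 (95% counting interval 9.35 to 289.9). The 6 Hsp70 features, heat shock genes on 3R that share reads, were higher in females with log2 folds of 2.41 to 2.82. Caf1-180, the large subunit of a chromatin assembly factor that deposits histones at replication, lay at 3.88 to 34.7 (median 5.24) RPM in females and 0 to 2.83 (median 0.570) RPM in males, a log2 fold of 3.53 (SE 0.55, edgeR adjusted p = 5.2e-05). In males, S-Lap1, a leucyl aminopeptidase of sperm, had 105 reads against 1 in females, a ratio of 156 (95% counting interval 27.4 to 6223). The overlapping rows Arc1 and CR10102 (-1.71 and -1.72), of the capsid-like gene Arc1, and the near-identical Prx6b and CG12896 (-3.33 and -3.32) were also higher in males, with overlapping ranges.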
